A study of Mus musculus with 50 samples.

Results

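Mouse embryonic stem cells that lack both G9a and Suv39h1/2 (G9a;Suv39h1/2-TKO, here TKO cells) were compared with and without induction of a Dux transgene. The genes described are those at 1 TPM (relative abundance of transcripts, scaled to the same total in every library) or more in at least 2 of the 4 TKO libraries, 12265 of the 24413 rows of the deposited table. The groups were TKO cells labelled dox 1 and TKO cells labelled dox 0, with 2 libraries each. All these cells were of strain TT2, were knocked out for endogenous Dux and carried a doxycycline-inducible Dux transgene (Tet-on-Dux). The labels give no unit or duration for dox, do not explain the NT in the sample titles and do not state whether the line is 1 clone. They also do not say whether the replicates were separate cultures. The p-values measure the spread between replicate libraries, estimated over all 32 libraries of the table and not from the 4 TKO libraries alone. That spread may be technical. The whole table held 32 libraries from 8 lines with the same transgene, 2 libraries with and 2 without dox for each line. The induced libraries were labelled dox 0.2 in the control and Setdb1-KO lines and dox 1 in the other 6. The TKO line was also set against the G9a-KO, Suv39h1/2-DKO and G9a;Suv39h1/2;Setdb1-QKO lines, which have the same dox labels. The last of these is labelled OHT where TKO, G9a-KO and Suv39h1/2-DKO are labelled NT, and OHT is not explained either. OHT is also the label of the Setdb1-KO, G9a;Setdb1-DKO and Suv39h1/2;Setdb1-TKO lines, for which calls are counted below. The control line is labelled NT. A separate comparison used QKO cells without the transgene and Dux-KO QKO cells without it, both labelled OHT.

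Dux is the double-homeodomain transcription factor that starts the 2-cell program in mouse: it binds near the genes and MERVL retroviral elements that are switched on when the zygotic genome awakens, and a short pulse of it turns embryonic stem cells into 2-cell-like cells. G9a (gene Ehmt2) is the main enzyme for dimethylation of histone H3 lysine 9 in euchromatin, and Suv39h1 and Suv39h2 trimethylate the same residue in pericentromeric heterochromatin and at repeats. Setdb1, which silences endogenous retroviruses, is not among the genes labelled as knocked out in TKO cells.

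With induction a small set of genes rose by large factors. No library with dox lacked the transgene, so an effect of doxycycline itself was not tested. TetOnDux was at 32.6 and 48.4 TPM in the dox 1 libraries, against 2.42 and 4.30 TPM in the dox 0 libraries. Both induced libraries lay far above both uninduced ones, and the uninduced ones were not at 0. Of 13819 genes tested on log2(TPM + 1), 69 were called higher, which is 0.499% of those tested, and 0 were called lower (0%). A call needed an adjusted p below 0.05 with limma and a log2 fold change of at least 1 in size. Both dox 1 libraries lay above both dox 0 libraries in 1000 of the tested genes (7.24%) and below them in 5032 (36.4%), and all 69 called genes were among the 1000. All 69 are members of the set at 1 TPM, 1 of them is the transgene itself, and their median log2 fold change was 3.16, with a range of 1.12 to 6.18. Membership is not independent of the call. Of the 12265 members, 68 were under 1 TPM in both dox 0 libraries and so entered through the dox 1 libraries, and 14 of these were called higher. Summed over the 68 endogenous genes, the level was 10025 and 9788.7 TPM in the dox 1 libraries, against 969.43 and 708.25 TPM in the dox 0 libraries. That is 1.003% and 0.979% of all transcripts with induction, against 0.0969% and 0.0708% without it. In bulk RNA, more responding cells and more RNA per responding cell cannot be told apart.

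In the Zscan4 family 4 genes carry, in the promoter, a near match to the sequence that Dux binds. They are shown because, of the called genes with a promoter found, only they had a match. No promoter was found for Zscan4a, the other called gene of the family. The motif searched was TGATT followed after 2 free bases by ATCA, the paired half-sites of the Dux motif, on both strands of the 300 bases from 250 before to 50 after each RefSeq start (GRCm38.p6). Capitals mark the match, which reads TGATTCTATCA on the opposite strand. The stretches lie at chr7:10905101-10905171 (minus strand) for Zscan4b, chr7:11005601-11005671 (plus) for Zscan4c, chr7:11166233-11166303 (minus) for Zscan4d and chr7:11397794-11397864 (plus) for Zscan4f.
Zscan4b: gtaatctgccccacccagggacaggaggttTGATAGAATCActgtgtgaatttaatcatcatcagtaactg
Zscan4c: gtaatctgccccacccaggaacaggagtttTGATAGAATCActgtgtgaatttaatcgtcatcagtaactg
Zscan4d: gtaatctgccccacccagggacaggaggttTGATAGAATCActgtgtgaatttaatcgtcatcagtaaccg
Zscan4f: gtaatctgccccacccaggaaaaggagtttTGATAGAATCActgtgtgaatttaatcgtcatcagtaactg
The match starts 91 bases before the annotated start of Zscan4b and Zscan4f, 114 before that of Zscan4c and 125 before that of Zscan4d, and the flanks of the 4 copies are nearly identical. Promoters were found for 47 of the 68 endogenous called genes, and these 4 were the only ones of the 47 with a match. The motif occurred in 68 of 32851 mouse promoters (0.207%) and in 10 of 12539 promoters of the genes at 1 TPM (0.0798%). A match is a description of letters, and its absence from this window says nothing about where Dux binds. The whole Zscan4f promoter, chr7:11397665-11397964 on the plus strand, shows the match in its setting.
Zscan4f promoter: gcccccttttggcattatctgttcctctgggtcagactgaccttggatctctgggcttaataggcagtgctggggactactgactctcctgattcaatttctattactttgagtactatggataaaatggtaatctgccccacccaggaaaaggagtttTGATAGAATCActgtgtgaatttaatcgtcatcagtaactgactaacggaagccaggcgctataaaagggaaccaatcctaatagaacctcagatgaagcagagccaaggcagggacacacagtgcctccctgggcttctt

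The knocked-out genes were low in TKO cells, with or without dox. Ehmt2 was at 2.75 and 3.70 TPM in the dox 1 libraries and 3.14 and 4.002 TPM in the dox 0 libraries, against 109.6 and 128.7 TPM in the uninduced control line. Suv39h1 was at 6.29 and 4.90 TPM with dox and 6.66 and 6.00 TPM without, against 30.8 and 25.1 TPM in uninduced control cells. Suv39h2 was at 6.90 and 6.88 TPM with dox and 9.004 and 8.08 TPM without, against 18.99 and 18.98 TPM there. Setdb1 was at 39.9 and 53.1 TPM with dox and 49.4 and 64.3 TPM without, against 66.1 and 71.0 TPM in uninduced control cells. None of these genes was called between dox 1 and dox 0. Transcript levels do not measure protein.

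Defining markers of embryonic stem cells were abundant in both groups. The summed level of 8 such genes, among them Pou5f1, Sox2 and Nanog, was 10420 and 9058 TPM with dox, against 11400 and 9849 TPM without, and the groups overlapped. Of 12 fibroblast (feeder) genes 3 reached 1 TPM in any library, their sum was 35.2 and 39.9 TPM with dox against 34.8 and 39.1 TPM without, and Prrx1 and S100a4 were listed at 0. The sum of 6 primitive endoderm genes was 104 and 154 TPM with dox, against 138 and 176 TPM without. The sum of 6 trophoblast genes was 4.05 and 5.13 TPM with dox, against 7.64 and 7.51 TPM without, and both induced libraries were the lower ones. The 4 libraries had 11888 to 12264 genes at 1 TPM. Over all tested genes the median log2 fold change was -0.13, and it was 0.0026 after median-ratio scaling, so a small negative value below is close to the typical gene. Of the 32 libraries, 6 stood apart by high levels of Snhg RNAs (snoRNA host genes), with a mean log2(TPM + 1) of 4.46 or more against 3.49 or less in all others. They belong to the control, Setdb1-KO, G9a-KO and G9a;Setdb1-DKO lines, and none is a TKO library, but they enter the shared estimate of spread. Without them 134 genes were called higher (0.970%) and 0 lower, and all 69 genes were among the 134. With the replicate number as a block within each line, 108 were called higher and 2 lower.

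**Figure D1:**
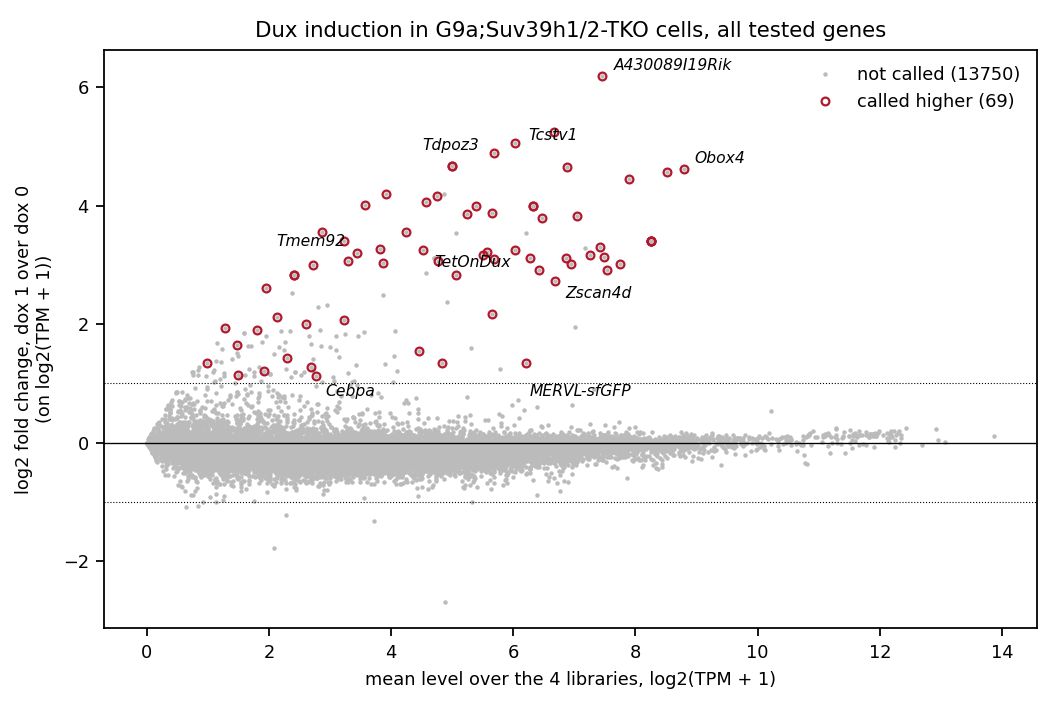
Log2 fold change of dox 1 over dox 0 in TKO cells against the mean level over the 4 libraries, both on log2(TPM + 1), for the 13819 tested genes, with the 69 called genes circled and dotted lines at 1 and -1. The called genes spread over low and high levels, all above 1. Most other genes form a band just under 0, but 159 tested genes, called or not, lie at 1 or higher.

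The Zscan4 family, zinc-finger and SCAN-domain genes known for bursts of expression in 2-cell embryos and for telomere maintenance in stem cells, responded as a whole: 5 of 5 measured genes rose. Zscan4a, an unprocessed pseudogene in the GENCODE M21 annotation, was at 197 and 194 TPM with dox, against 5.05 and 3.52 TPM without. It rose by 5.24 on the log2 scale (SE 0.413, adjusted p = 1.39e-07). Zscan4f, the most abundant of them, was at 693 and 708 TPM with dox, against 32.6 and 25.1 TPM without, and rose by 4.57 (SE 0.47, adjusted p = 6.42e-06). The 2 induced libraries nearly coincided in both genes and lay far above the uninduced ones. Zscan4c was at 439 and 474 TPM with dox, against 21.2 and 18.7 TPM without, and Zscan4b at 196 and 257 TPM with dox, against 7.67 and 8.20 TPM without. Zscan4d had the smallest rise of the family, 2.74 on the log2 scale, at 181 and 172 TPM with dox, against 30.1 and 21.8 TPM without. Its uninduced level was close to that of Zscan4f. These copies are so alike that reads may be split among them, and values of single copies are uncertain.

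The Usp17-like genes, which encode deubiquitinating enzymes, also rose in 5 of 5 cases, with a median log2 fold change of 3.16. Usp17la was at 265 and 359 TPM with dox, against 29.5 and 31.0 TPM without, and rose by 3.31 (SE 0.264, adjusted p = 1.53e-07). Usp17le was at 258 and 384 TPM with dox, against 29.2 and 41.8 TPM without. Usp17lb, Usp17lc and Usp17ld rose by 3.16, 3.01 and 3.16 on the log2 scale. The family is a group of near-identical copies, and the second induced library was the higher one in 4 of the 5 genes, Usp17lb being the exception.

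Obox4 was the most abundant of all called genes. This oocyte-type homeobox gene of the 2-cell stage was at 778 and 919 TPM with dox, against 33.5 and 33.7 TPM without, and rose by 4.61 on the log2 scale (SE 0.265, adjusted p = 6.46e-10). Both induced libraries lay far above both uninduced ones. The other measured Obox genes did not pass the test: Obox6 was at 12.3 and 14.985 TPM with dox, against 8.07 and 9.54 TPM without (adjusted p = 0.458), and Obox3 was at 1.26 and 1.40 TPM with dox, against 0.053 and 0 TPM without (adjusted p = 0.334). Both of their induced libraries lay above both uninduced ones.

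Among Tdpoz genes, which encode TRAF- and POZ-domain proteins, 2 of the 4 members named so in the table rose. RefSeq names the called rows Gm9125 and Gm4858 as Tdpoz9 and Tdpoz8, and by its symbols, looked up after the values were seen, 4 of 7 rose. Tdpoz3 was at 99.4 and 96.6 TPM with dox, against 2.53 and 2.14 TPM without, and rose by 4.89. Tdpoz1 was at 17.1 and 15.4 TPM with dox, against 0.654 and 0.603 TPM without, and rose by 3.40. Tdpoz4 had 6.97 and 6.82 TPM with dox, against 1.91 and 0.579 TPM without (adjusted p = 0.552), and Tdpoz5 had 5.36 and 3.87 TPM with dox, against 1.70 and 1.297 TPM without (adjusted p = 0.616). Tcstv1, a gene of the 2-cell stage, was at 143 and 107 TPM with dox, against 3.27 and 2.26 TPM without, and rose by 5.06 (SE 0.551, adjusted p = 1.33e-05). Its neighbour Tcstv3 was at 45.5 and 35.8 TPM with dox, against 5.74 and 3.79 TPM without, and did not pass (log2 fold change 2.87, adjusted p = 0.0851). In every one of these genes the induced libraries lay above the uninduced ones. Without the 6 libraries of high Snhg level, Tdpoz4, Tdpoz5, Tcstv3 and Obox3 passed too, giving 4 of 4 Tdpoz, 2 of 2 Tcstv and 2 of 3 Obox genes by the table's names. Tcstv3 also passed with the replicate block (adjusted p = 9.52e-05).

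PRAME-like genes encode leucine-rich-repeat proteins of the germline and early embryo, and 3 of the 10 measured under a Prame name in the table rose. RefSeq now gives a Pramel symbol to further rows with predicted or clone names, and by these symbols, looked up after the values were seen, 10 of 19 rose. Among the added ones are A430089I19Rik (Pramel39) and Gm7978 (Pramel50), described below. With the replicate block, and without the 6 libraries of high Snhg level, the first count was 4 of 10. Pramef25 was at 91.4 and 91.5 TPM with dox, against 10.7 and 8.88 TPM without. Pramef6 was at 2.78 and 2.90 TPM with dox and was listed at 0 in both libraries without it. Pramel5 was at 3.22 and 3.22 TPM with dox, against 0.191 and 0.519 TPM without. The members most abundant over the 4 libraries together did not pass: Pramel6 had 98.1 and 66.9 TPM with dox, against 86.0 and 56.5 TPM without (adjusted p = 0.995), and Pramel7 had 60.9 and 48.8 TPM with dox, against 56.6 and 43.8 TPM without (adjusted p = 0.995).

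**Figure D2:**
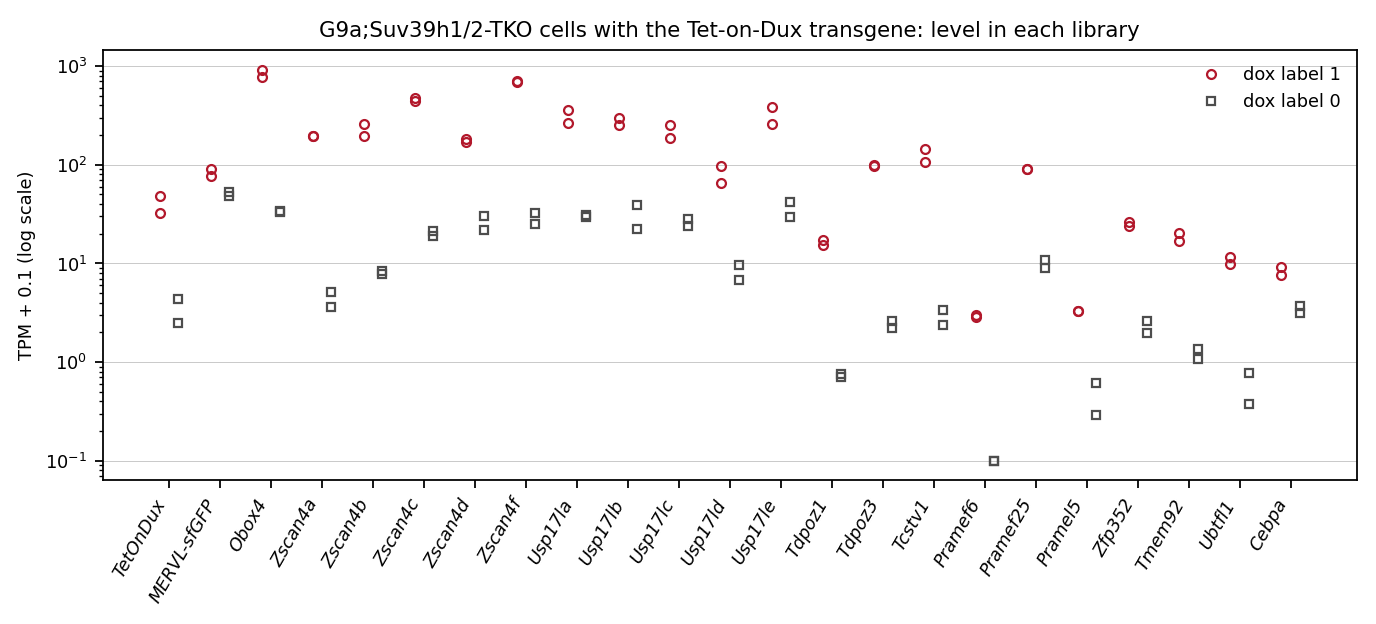
TPM + 0.1 on a log scale in each of the 4 TKO libraries, circles for dox 1 and squares for dox 0, for TetOnDux, the MERVL-sfGFP reporter and 21 called genes. For each of the 21 genes both circles lie above both squares. Obox4 is the highest gene and Pramef6 is listed at 0 without dox.

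Of 33 genes listed as single-copy and linked to the 2-cell stage, 4 rose: Zfp352, Tmem92, Olfr376 and Ddit4l. The list is not strictly single-copy: Duxbl2 and Duxbl3, for example, had identical values in the TKO libraries and are counted separately. The count was 9 of 33 without the 6 libraries of high Snhg level, with Spz1, Lmx1a, Duxbl2, Duxbl3 and Bex6 added, and 6 of 33 with the replicate block. Zfp352, a zinc-finger gene of the 2-cell embryo, was at 26.0 and 24.0 TPM with dox, against 2.49 and 1.86 TPM without. Tmem92, which encodes a membrane protein, was at 16.8 and 20.2 TPM with dox, against 0.975 and 1.25 TPM without. Ddit4l, an inhibitor of mTOR signalling, was at 39.9 and 39.8 TPM with dox, against 16.1 and 14.0 TPM without. The most abundant of the uncalled members, Calcoco2 and Aqp3, did not pass: Calcoco2 had 106 and 87.0 TPM with dox, against 118 and 97.5 TPM without, and Aqp3 had 82.2 and 75.4 TPM with dox, against 101 and 100.2 TPM without. Their log2 fold changes were -0.16 (adjusted p = 0.989) and -0.35 (adjusted p = 0.338). Over all 2-cell and Dux-linked lists 21 of 62 members rose and 0 fell, with a median log2 fold change of 0.98 against -0.14 over all members. Of the 62, 7 were under 1 TPM in both dox 0 libraries and so entered through the dox 1 libraries. The count was 31 of 62 without the 6 libraries of high Snhg level and 25 of 62 with the replicate block.

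The MERVL-sfGFP reporter, a fluorescent protein gene driven by the retroviral element that marks 2-cell-like cells, was at 76.4 and 90.4 TPM with dox, against 53.1 and 47.7 TPM without. The groups did not overlap, but the log2 fold change of 0.71 (SE 0.387) did not pass (adjusted p = 0.653).

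Other called genes with established names were Ubtfl1, Cebpa, Gpr63, Tspan1, Chst5, Bola1, Hist1h2ag and Hist1h3c. Ubtfl1, an HMG-box gene of the preimplantation embryo, was at 9.78 and 11.6 TPM with dox, against 0.670 and 0.275 TPM without. Cebpa, a transcription factor of myeloid and fat cells, rose by 1.12 on the log2 scale, at 7.62 and 9.15 TPM with dox, against 3.05 and 3.58 TPM without. Bola1, a mitochondrial protein gene, was at 119 and 91.5 TPM with dox, against 45.6 and 35.6 TPM without. In all 3 genes the induced libraries lay above the uninduced ones. The histone genes Hist1h2ag and Hist1h3c rose by 2.07 and 1.54. Neither is in the fixed list of 10 measured replication-dependent histone genes, of which 0 were called: Hist1h4i, for example, was at 86.7 and 65.7 TPM with dox, against 33.609 and 29.1 TPM without (adjusted p = 0.66). Without the 6 libraries of high Snhg level 2 of the 10 were called, Hist1h4i (adjusted p = 0.0187) and Hist1h3e (adjusted p = 0.0427), and with the replicate block 1 was.

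Predicted genes made up 39 of the 69. A430089I19Rik had the largest fold of all called genes, at 340 and 352 TPM with dox, against 4.94 and 2.85 TPM without (log2 fold change 6.18, SE 0.35, adjusted p = 6.46e-10). BC061212 and Gm7978 had identical values, 60.9 and 60.4 TPM with dox, against 1.21 and 1.67 TPM without. Such sets of identical rows numbered 4 and held 10 called genes, so the 68 endogenous genes hold 62 distinct patterns, and which copy the reads came from is uncertain.

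Many of the called genes lay close together. Positions in GENCODE M21 (GRCm38, the mm10 assembly) were found for 65 of the 68, and 39 of these fell into 8 runs of 3 or more called genes with gaps of at most 1 Mb, while 20 lay alone. The longest run held 9 called genes, among them Pramef6, Pramef25 and Pramel5, at chr4:143535954-144364419, where 11 genes in all were at 1 TPM. A run of 8 lay at chr12:87514316-88324026, all with predicted or clone names. The 5 Zscan4 genes lay at chr7:10794242-11402318, with no other gene at 1 TPM inside that span. Chromosomes 4, 7 and 12 held 14, 13 and 9 of the called genes, among 775, 919 and 418 members there. Short gene structures were also frequent: 53.85% of the called genes had no transcript of more than 2 exons, against 6.92% of the members. These shares count tandem copies singly and were not tested. Runs under the same 1 Mb rule were not counted for other members.

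Outside the 2-cell lists no gene group had a called member, and the histone list was the one exception under the alternatives above. Of 31 germline genes, 25 pluripotency genes, 19 primitive endoderm genes, 13 trophoblast genes, 21 p53 targets, 17 ATF4 stress genes, 8 interferon genes, 31 proteasome genes and 30 genes of H3K9 methylation and silencing, 0 were called in each list. Of all tested genes 0.499% were called higher. At that share lists of these sizes would hold few or no called genes, so the counts of 0 do not set these groups apart. In these 9 lists the counts were still 0 without the 6 libraries of high Snhg level. Their median log2 fold changes were -0.01, -0.21, -0.26, -0.30, -0.34, -0.01, -0.01, 0.02 and -0.18 in that order, against -0.14 over all members. Dppa5a, an abundant pluripotency marker, had 5338 and 4130 TPM with dox, against 5658 and 4306 TPM without, and Tdgf1, a Nodal co-receptor, had 1632 and 1588 TPM with dox, against 1901 and 1833 TPM without. Neither passed (adjusted p = 0.995 and 0.56), and the Dppa5a libraries overlapped. Trim28, the corepressor that recruits Setdb1, had 1218 and 1354 TPM with dox, against 1205 and 1267 TPM without.

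**Figure D3:**
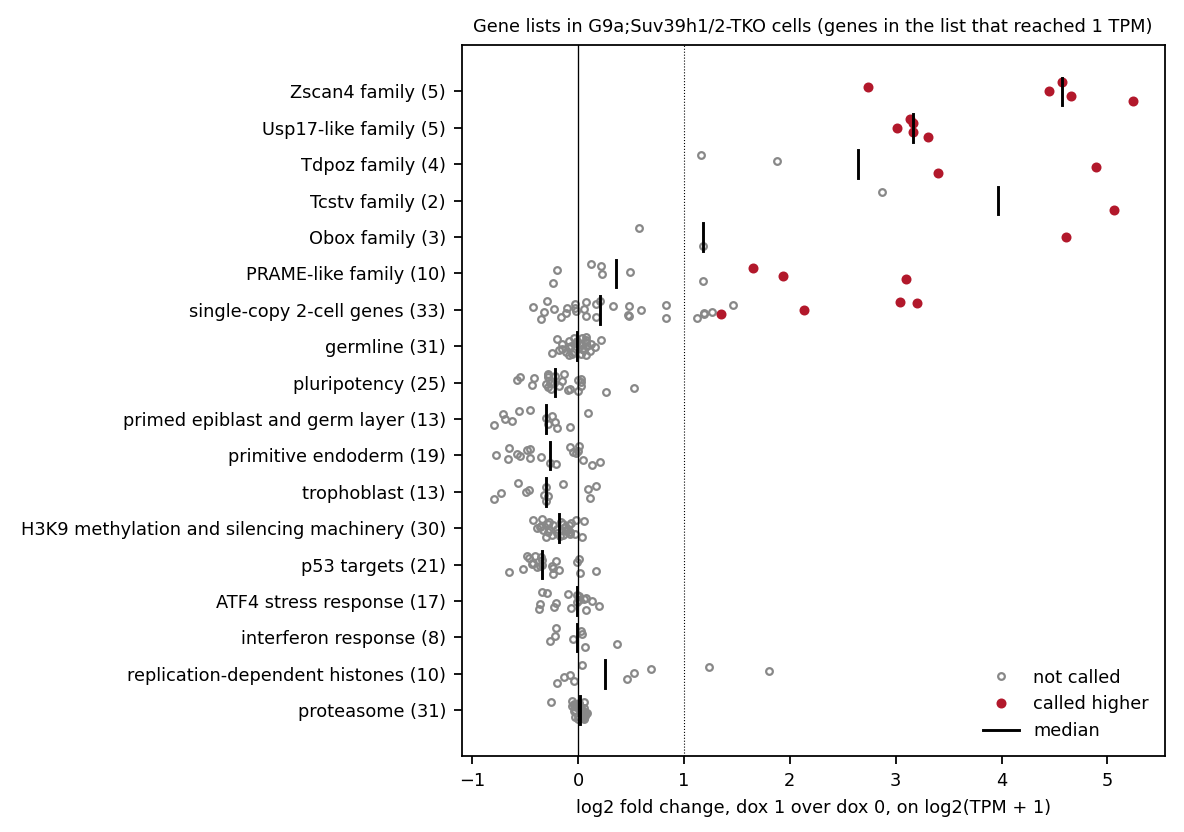
Log2 fold change of dox 1 over dox 0, on log2(TPM + 1), for the members of 18 gene lists in TKO cells, with the number of members at 1 TPM in parentheses, filled points for called genes, open points for others and a bar at the median. Filled points occur in the 7 upper lists, those of the 2-cell program, and in no list below them.

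In the main fit, which does not pair the replicates, no gene fell by 1 or more on the log2(TPM + 1) scale and passed. With the replicate block 2 genes did. At an adjusted p below 0.05 and any size, 14 genes were lower (0.101%) and 71 higher, and without the 6 libraries of high Snhg level 111 were lower and 172 higher. At an unadjusted p below 0.05, 999 were lower and 202 higher. The 999 became 323 after median-ratio scaling and 2528 with the replicate block. The largest of the 14 was Sema4c, a semaphorin, at 6.11 and 7.92 TPM with dox, against 12.5 and 16.2 TPM without (log2 fold change -0.94, adjusted p = 0.00304). Grhl3, an epithelial transcription factor, was at 12.3 and 16.2 TPM with dox, against 24.1 and 30.6 TPM without (-0.90, adjusted p = 0.0315). Elf3, another epithelial transcription factor, was at 65.8 and 80.0 TPM with dox, against 104 and 125 TPM without (-0.64, adjusted p = 0.0454), and Cdc42ep4, an effector of Cdc42, at 14.0 and 13.6 TPM with dox, against 21.5 and 22.9 TPM without (-0.65, adjusted p = 0.00275). These 4 were chosen after their values were seen. After median-ratio scaling, which takes out the shift of the typical gene, their log2 fold changes were -0.80, -0.75, -0.49 and -0.50, and Sema4c passed (adjusted p = 0.0127) while Grhl3, Elf3 and Cdc42ep4 did not (adjusted p = 0.184, 0.794 and 0.371).

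The response was set against genes that differ with endogenous Dux in other cells of the study, called Dux-dependent below. In a separate table of 18 libraries, G9a;Suv39h1/2;Setdb1-QKO cells were compared with Dux-KO cells of the same other knockouts. The titles give these lines different names, so an effect of Dux cannot be told apart from other differences between them. In the QKO cells 253 of 13862 tested genes (1.83%) were higher, and 653 were lower. Of these 253 genes, 63 were called higher with dox in TKO cells, which is 24.9% of them and 92.65% of the 68 endogenous called genes. Of the 250 tested in both tables, 234 had a positive log2 fold change in TKO cells, with a median of 1.06 against -0.13 over all tested genes. The remaining called genes were 7420426K07Rik, Chst5, Ddit4l, Hist1h2ag and Tspan1, which were higher in the same direction in QKO cells, with log2 differences of 0.62, 0.38, 0.58, 1.23 and 0.63, but did not pass both thresholds there. With the replicate block in the fit the overlap was 95 genes, and without the 6 libraries of high Snhg level it was 117.

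Many of the same 68 genes were also called in the other lines with dox label 1. In G9a-KO cells 64 of the 68 were called higher, where 132 of all tested genes were (0.955%). In G9a;Setdb1-DKO cells 61 of the 68 were, against 105 of all tested (0.76%). For G9a;Suv39h1/2;Setdb1-QKO cells the counts were 48 of the 68 and 54 of all tested (0.391%). They were 40 and 60 (0.434%) in Suv39h1/2-DKO cells, and 30 and 35 (0.253%) in Suv39h1/2;Setdb1-TKO cells. All 68 had a positive log2 fold change in G9a-KO, QKO and DKO cells, 67 in G9a;Setdb1-DKO cells and 66 in Suv39h1/2;Setdb1-TKO cells. The median log2 fold change was 3.16 in TKO cells, 4.42 in G9a-KO cells, 2.95 in QKO cells and 2.66 in DKO cells. The genes were chosen in TKO cells, so the TKO value is not comparable on equal terms. TetOnDux reached 32.6 and 48.4 TPM in induced TKO cells, against 55.5 and 58.0 TPM in G9a-KO, 59.2 and 71.5 TPM in Suv39h1/2-DKO and 25.4 and 42.0 TPM in QKO cells. The transgene was thus lower in TKO than in DKO cells, and its part in the responses was not tested. In the control and Setdb1-KO lines, which were labelled dox 0.2 and are not compared, 24 and 23 of the 68 were called. Of all tested genes 26 (0.188%) and 24 (0.174%) were called higher there.

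**Figure D4:**
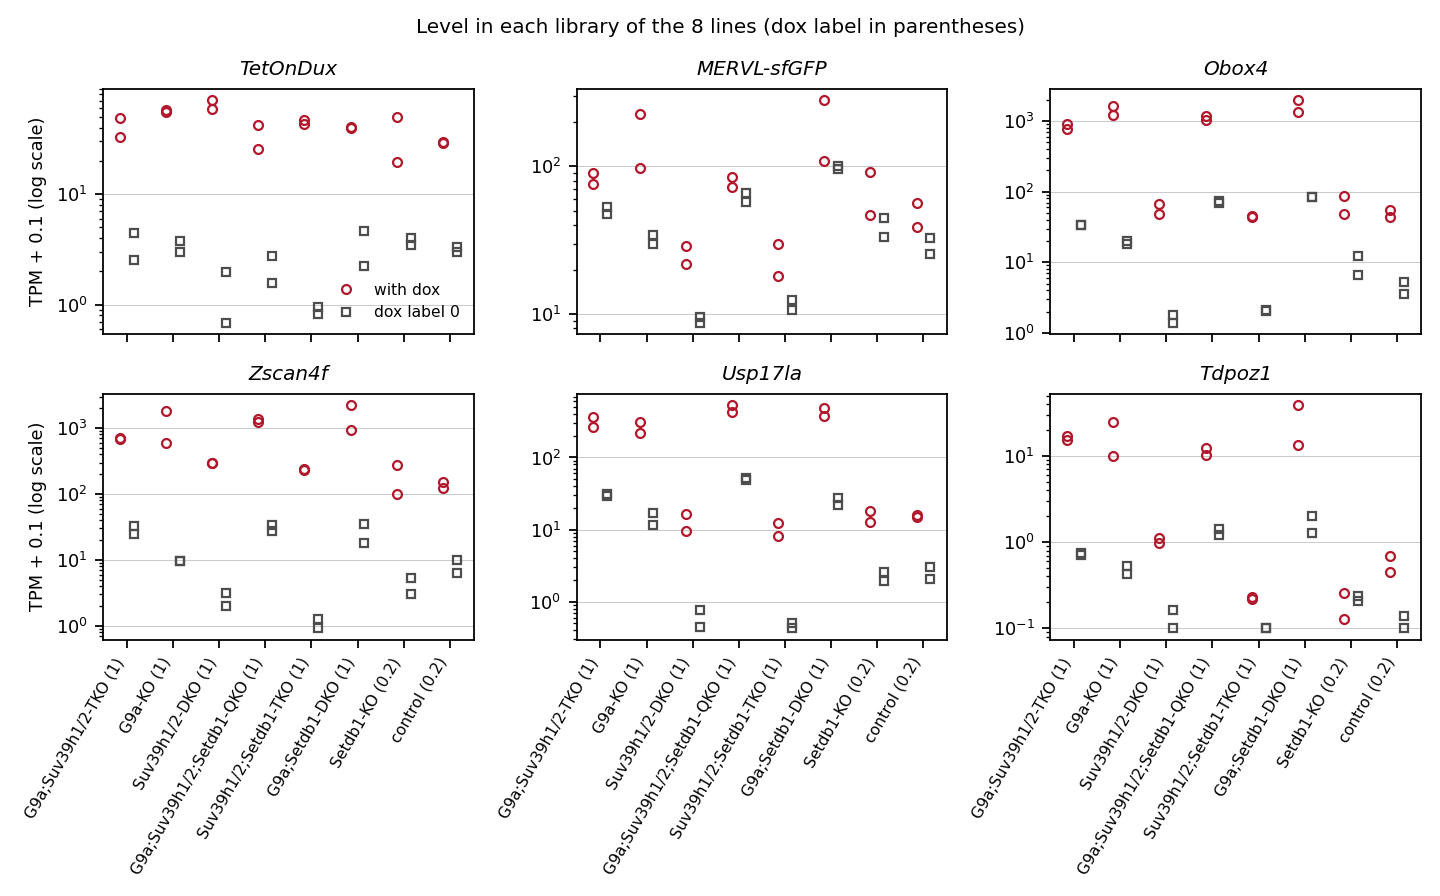
TPM + 0.1 on a log scale in every library of the 8 lines, circles with dox (label 1, or 0.2 for Setdb1-KO and control) and squares at dox label 0, for TetOnDux, the MERVL-sfGFP reporter, Obox4, Zscan4f, Usp17la and Tdpoz1. The transgene reached 19.3 to 71.5 TPM in all induced libraries, while among the 6 lines with dox label 1 induced Obox4, Usp17la and Tdpoz1 were lowest in the Suv39h1/2-DKO and Suv39h1/2;Setdb1-TKO lines, which have intact G9a.

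Most of these genes had higher levels in TKO cells than in Suv39h1/2-DKO cells, in which G9a is intact. With dox, 65 of the 68 genes were higher in both TKO libraries than in both DKO libraries, a pattern seen in 26.7% of all tested genes, and the median difference was 2.12 on log2(TPM + 1). Without dox, 60 of the 68 were higher in TKO cells (32.3% of all tested), with a median difference of 1.53. The 68 genes were chosen for their rise in these same TKO libraries, and they hold 62 distinct patterns. Their counts are therefore not on equal terms with the shares of all tested genes, here or against G9a-KO and QKO cells below. Obox4 was at 778 and 919 TPM in induced TKO cells, against 48.5 and 67.0 TPM in induced DKO cells, and at 33.5 and 33.7 TPM in uninduced TKO cells, against 1.27 and 1.67 TPM in uninduced DKO cells. Usp17la was at 265 and 359 TPM in induced TKO cells, against 9.54 and 16.2 TPM in induced DKO cells. Its uninduced TKO level, 29.5 and 31.0 TPM, lay above the induced level of DKO cells. That order was the exception: 3 of the 68 were higher in uninduced TKO than in induced DKO cells (39.1% of all tested) and 54 were lower (23.2%). Each of these is a comparison of 2 lines, and differences between lines other than the named genes were not tested.

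The change with dox itself was not shown to differ between TKO and DKO cells. In the difference of the 2 responses 0 genes were called (0%), with a smallest adjusted p of 0.144 and with 48 positive and 112 negative differences at an unadjusted p below 0.05. With the replicate block 4 genes were called, and without the 6 libraries of high Snhg level, none of which is from either line, 22 were called (0.159%), 18 larger and 4 smaller in TKO cells. Tdpoz1 had a difference of 2.47 (95% interval 2.09 to 2.86, adjusted p = 2.52e-05), at 17.1 and 15.4 TPM with dox, against 0.654 and 0.603 TPM without, in TKO cells, and 0.890 and 1.03 TPM with dox, against 0.062 and 0 TPM without, in DKO cells. The 18 positive differences come from genes below 1 TPM in uninduced DKO cells, where the size of the fold depends on the added pseudocount. With a pseudocount of 0.1 and without the same 6 libraries, all 22 kept their sign but 3 of them were called: Zscan4c, Zscan4d and Zscan4f. Some of the positive differences shrank with that pseudocount, as in Tdpoz1 (2.47 to 1.43), and others grew, as in Obox3 (1.11 to 2.98). Over the whole table that fit called 9 genes smaller and 0 larger in TKO cells. The median difference over the 68 genes was 0.39 with a pseudocount of 1 and -0.30 with a pseudocount of 0.1, so its sign rests on that choice.

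In 3 Zscan4 genes the response was smaller in TKO than in DKO cells under both pseudocounts, once the 6 libraries were left out. Zscan4d was at 181 and 172 TPM with dox, against 30.1 and 21.8 TPM without, in TKO cells, and 64.6 and 61.7 TPM with dox, against 1.28 and 1.07 TPM without, in DKO cells. The difference was -2.15 (SE 0.212, adjusted p = 0.000304) without the 6 libraries, and -2.86 (adjusted p = 0.00134) with the pseudocount of 0.1 as well. For Zscan4f it was -1.87 (adjusted p = 0.00212) and -2.27 (adjusted p = 0.00843), and for Zscan4c -1.80 (adjusted p = 0.00253) and -2.41 (adjusted p = 0.00843). Leaving out the 6 libraries was chosen after seeing the data. In the fit to all 32 libraries none of these 3 genes was called, the adjusted p of Zscan4d and Zscan4f being 1. In all these genes the induced and the uninduced level were both higher in TKO cells, and the uninduced level differed by the larger factor.

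**Figure D5:**
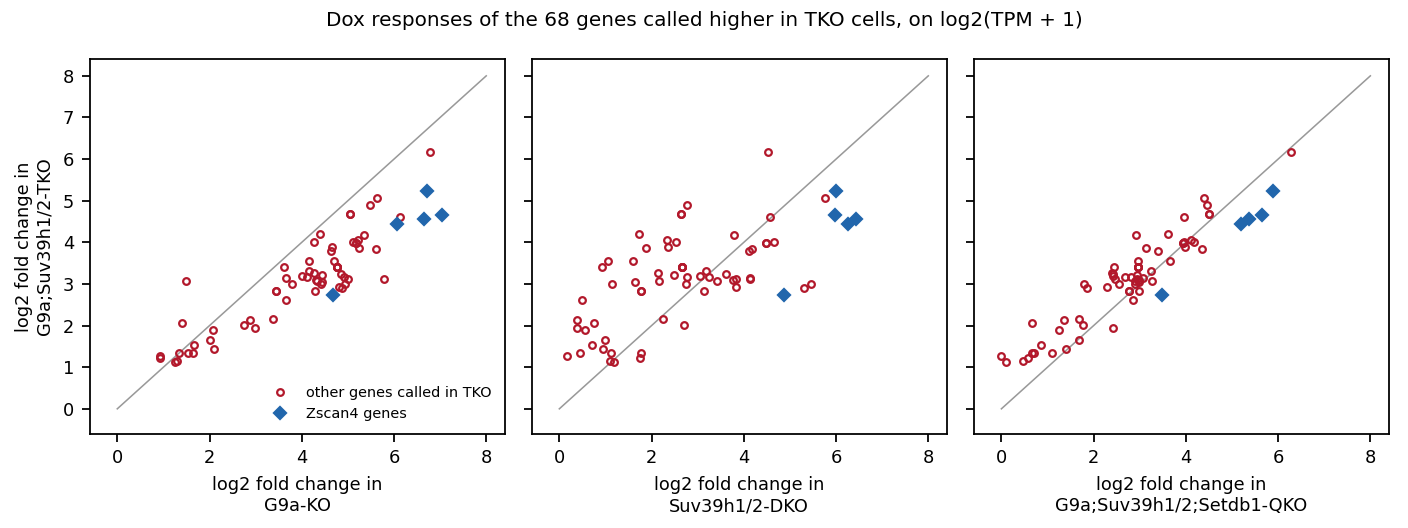
Log2 fold change with dox in TKO cells against that in G9a-KO, Suv39h1/2-DKO and QKO cells, on log2(TPM + 1), for the 68 endogenous genes called higher in TKO cells, with Zscan4 genes as diamonds and a line of equal response. Most genes lie below the line against G9a-KO cells, and the Zscan4 genes lie below it in all 3 panels.

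Against G9a-KO cells, 0 genes differed in response (0%), with a smallest adjusted p of 0.993 and with 54 positive and 145 negative differences at an unadjusted p below 0.05. Of the 68 genes 63 had a smaller fold in TKO cells, with a median difference of -1.02. That median rests on 1 library: the second induced G9a-KO library is among the 6 of high Snhg level, and without these 6 it was -0.18, with 45 genes smaller in TKO cells and 1 gene of the whole table called (0.00724%), Gm11569, which is not at 1 TPM in TKO cells. Without the 6, only 1 induced G9a-KO library was left. For induced G9a-KO cells the -0.18, the 45 genes and the call of Gm11569 thus rest on that library alone. It was assumed to vary like the other groups, and the fit had 10 residual degrees of freedom. The size of the difference therefore cannot be settled from either fit. In Zscan4f, for example, the induced G9a-KO libraries were at 598 and 1845 TPM, against which the induced TKO libraries, at 693 and 708 TPM, lay in between. The MERVL-sfGFP reporter was at 76.4 and 90.4 TPM in induced TKO cells, against 96.9 and 227 TPM in induced G9a-KO cells. In level, 58 of the 68 genes overlapped between the induced lines, 3 were higher in TKO cells (15.8% of all tested) and 7 lower (28.1%). Without dox 45 of the 68 were higher in TKO than in G9a-KO cells (30.1% of all tested), with a median difference of 0.56 on log2(TPM + 1).

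Against QKO cells, which lack Setdb1 as well, 0 genes differed in response (0%), with a smallest adjusted p of 0.544 and 82 positive and 31 negative differences at an unadjusted p below 0.05. Of the 68 genes 52 had a larger fold in TKO cells, with a median difference of 0.32, and in level 22 were higher (33.2% of all tested) and 31 lower (21.8%) in induced TKO than in induced QKO cells. Without dox 6 were higher (27.6% of all tested) and 37 lower (26.9%) in TKO than in QKO cells. Obox4 had a difference in response of 0.67 (95% interval -0.11 to 1.45), Usp17la of 0.07 (-0.71 to 0.85) and Zscan4f of -0.79 (-2.18 to 0.60). Zscan4d was at 181 and 172 TPM in induced TKO cells, against 523 and 526 TPM in induced QKO cells, and without dox at 30.1 and 21.8 TPM in TKO cells, against 48.1 and 44.5 TPM in QKO cells.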

How the data were processed

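Gene TPM values were deposited by the authors in 2 tables, of 18 and 32 libraries, which were normalised separately. Per the labels, RNA was made into stranded mRNA libraries and sequenced as paired ends. Per the submitters' processing notes, the tools were RSEM 1.3.1, SAMtools 1.9, Bowtie2 2.3.4.1 and STAR 2.7.10b, and the genome was mm10. Details not given in the sources used here are the annotation and how reads shared by near-identical copies were handled. TPM keeps no depth, so depth is unknown and no counting interval is given. Columns without a sample numbered 0.

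Genes at 1 TPM or more in 2 of the 32 libraries were tested as log2(TPM + 1) with limma 3.58.1 (R 4.3.3, trend on), 16 groups in 1 fit with 16 residual degrees of freedom, adjusted by Benjamini-Hochberg over all 13819 genes. Fold changes on this scale understate the change of low genes. The procedure was tested on simulated data. The members and lists were chosen with earlier results of these data known. Named genes were the targeted genes, the 20 highest and 12 lowest called genes with established names, called and abundant uncalled members of each list, and the 3 highest predicted names, with further genes marked as chosen later.

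The replicate numbers pair the libraries: within each line the difference of replicate 2 and replicate 1 correlated between dox and no dox, with r of 0.177 to 0.748 over the 8 lines (0.558 in TKO). The main fit did not use this pairing, and the fit with the replicate block of line and number did. The nearest genes at the limit of 1 TPM had a second-highest value of 1.0002 TPM inside and 0.99967 TPM outside it. Sequences are from RefSeq (GRCm38.p6), drawn with Python 3.11.15 and matplotlib 3.10.9.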

Additional observations from a re-analysis of the deposited data

How the results depend on the processing

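The call of TetOnDux and the miss of the MERVL-sfGFP reporter held under every alternative tried, with log2 fold changes of 2.94 to 3.58 and 0.59 to 0.87. Genes called higher numbered 58 to 83 under another pseudocount, filter, scaling, a block of replicate number alone, the compared libraries alone or no fold threshold. They numbered 108 with the replicate block of line and number, and 134 without the 6 libraries of high Snhg level, an alternative chosen after seeing the data. Leaving out 1 library gave 33 to 45: 39 without dox 1 replicate 1, 37 without dox 1 replicate 2, 45 without dox 0 replicate 1 and 33 without dox 0 replicate 2, the lone library being assumed to vary like the other groups. Genes called lower numbered 3 with a pseudocount of 0.1, 2 with the replicate block, 14 with no fold threshold and 0 to 2 without 1 library. Genes whose response differed from DKO cells numbered 3 after median-ratio scaling, 4 with the replicate block, 2 with replicate number alone, 10 with only the libraries compared, 22 without the 6 libraries and 0 to 2 without 1 library. For G9a-KO cells they numbered 1 without the 6 libraries and 0 to 2 without 1 library, and for QKO cells 2 with no filter. The overlap with Dux-dependent genes was 95 with the block, 117 without the 6 libraries and 31 to 43 without 1 library. The block kept the call of all 32 called genes followed through every alternative and, of the 21 uncalled ones so followed, added Tcstv3 (adjusted p = 9.52e-05). The gene lists whose counts it moved are given with those lists. For the differences the cause was not tested. Without the 6 libraries the induced G9a-KO group held 1 library, which was likewise assumed to vary like the other groups.

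Signs that turned belong to uncalled genes near 0. After median-ratio scaling the log2 fold change of Ehmt2 was 0.0076, of Calcoco2 0.0024 and of Dppa5a 0.089. Without 1 library Ehmt2 ranged from -0.28 to 0.047, Pramel6 from -0.085 to 0.51, Pramel7 from -0.054 to 0.31, Dppa5a from -0.27 to 0.12 and Trim28 from -0.021 to 0.13.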
